A study of Mus musculus with 12 samples.

Results

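Arachidonic acid and prostaglandin E2 were compared in mouse intestinal organoids that lack Ptger4, the gene of the PGE2 receptor EP4, by the histone mark H3K27ac. The comparison used 4 of the 12 libraries of the series. They were the 2 Ptger4 knockout (KO) libraries treated with arachidonic acid (AA, 25 µM) and the 2 KO libraries treated with prostaglandin E2 (PGE2, 50 nM), chosen by their genotype and treatment labels. The other 8 libraries, 2 each of KO vehicle, wild type (WT) vehicle, WT AA and WT PGE2, served as reference. All organoids came from isolated crypts grown in Matrigel in medium with EGF, Noggin, R-spondin, CHIR-99021 and Y-27632, so vehicle organoids received these factors as well. The sample characteristics give day 3 and the treatment protocol day 6, and the series design speaks of 6,16-dimethyl PGE2, whereas the samples are labelled PGE2. The labels do not state the allele of the knockout or whether it was confined to a cell type. Nor is it stated that replicate libraries were made from different cultures or mice. The p-values here reflect library-to-library spread, pooled partly or wholly over intervals, which may be technical. The doses of AA and PGE2 differ, and differences below are between these 2 treatments as given.

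AA is a polyunsaturated fatty acid held in membrane lipids. Cyclooxygenases, encoded by Ptgs1 and Ptgs2, turn it into prostaglandin H2, from which synthases make PGE2 and the other prostanoids. PGE2 acts through the receptors EP1 to EP4. EP4 and EP2 (Ptger2) couple to the G protein that raises cAMP, EP3 (Ptger3) mainly to one that lowers it, and cAMP activates protein kinase A and the transcription factor CREB. In the intestine PGE2 is known for supporting epithelial repair and stem cell survival. H3K27ac marks active promoters and enhancers. In CUT&RUN, the assay used here, a nuclease tethered to an antibody cuts out the DNA beside the mark, and the fragments are sequenced.

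Each value is a peak score, a signal per interval and library on the authors' scale, which was never negative. Read depth is unknown, so no counting error can be given. The SEACR intervals (166517, median width 1759 bp) were the main set and the MACS2 intervals (702, median width 241.5 bp) a second one. A library's scores were put on a log2 scale and centred on the library's median, and limma with Benjamini-Hochberg adjustment tested each interval. An interval passed at an adjusted p under 0.05. A negative log2 difference means a lower score with AA than with PGE2. Positions are those of the mm10 file, which does not say whether starts count from 0 or 1. Statements that groups overlap or not refer to the deposited scores.

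Among the 6 pairs of the 4 compared libraries, the KO PGE2 pair had the lowest correlation across SEACR intervals, though not across MACS2 intervals. PGE2 replicate 2 had a median SEACR score of 0.0941, whereas the other 11 libraries lay between 0.112 and 0.122. Its mean Spearman correlation with the other libraries across SEACR intervals was 0.157, against 0.292 to 0.393 for the rest, although in the MACS2 intervals it was 0.599. The 8 strongest intervals held 10.7% of its summed SEACR signal, 5.21% in PGE2 replicate 1 and 2.93% to 4.92% in the other 10 libraries. The 2 AA libraries correlated with each other at 0.369 and the 2 PGE2 libraries at 0.130 across SEACR intervals, and at 0.588 and 0.585 across MACS2 intervals, all as descriptions. Results that depend on PGE2 replicate 2 are therefore given against each PGE2 library.

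Few SEACR intervals separated AA from PGE2, and those that did were lower with AA. In limma 9 of 166471 intervals (0.00541%) passed, all 9 lower with AA and none higher. At an unadjusted p under 0.05 there were 9407 intervals (5.65%), of which 5656 (3.4%) were lower with AA and 3751 (2.25%) higher. In all 9 passing intervals the 2 groups did not overlap, and in each PGE2 replicate 2 lay above replicate 1. Picking intervals by a small p favours such separation, and its share over all intervals was not counted, so it adds no separate evidence. The KO vehicle libraries lay between the AA and the PGE2 libraries in 8 of the 9. The same picking favours this order, and its share over all intervals was not counted either. None of the 9 held a gene start, 6 had a protein-coding gene within 50 kb and 3 did not. Of all intervals tested 10166 held a gene start, and 78.4% of SEACR intervals had a gene within 50 kb. So few passing intervals cannot show a departure from these shares. By mean score in the 8 libraries outside the comparison, 8 of the 9 were among the 100 strongest intervals of the genome. Whether the 9 lie in repeated sequence was not tested, so their scores may not belong to one locus. Genes named for them below give a position only.

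The interval with the smallest p lay inside the span of 2210408I21Rik (chr13:77438415-77439172). Its score was 2.81 and 2.58 in the AA libraries, 5.72 and 13.0 in the PGE2 libraries and 3.42 and 3.76 with vehicle. Both PGE2 libraries thus lay above all 4 others, and replicate 2 far above replicate 1. The log2 difference was -1.80 ± 0.23 (SE; limma, adjusted p = 0.00421), with group means of 2.70 ± 0.162 and 9.38 ± 5.17 (SD, n = 2).

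An interval inside the overlapping spans of Filip1l, which encodes a filamin-binding protein, and Cmss1 (chr16:57391002-57391917) came next. It scored 0.293 and 0.357 with AA, 0.600 and 0.685 with PGE2, and 0.461 and 0.463 with vehicle. The 3 groups did not overlap and vehicle stood in the middle. The difference was -1.02 ± 0.13 (limma, adjusted p = 0.00421).

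A pair of passing intervals lay next to each other near 9230019H11Rik on chromosome 10. The one 2501 bp from the gene span (chr10:3110840-3117340) scored 0.323 and 0.258 with AA, 0.609 and 1.15 with PGE2 and 0.333 and 0.365 with vehicle. Its log2 difference was -1.51 ± 0.20 (limma, adjusted p = 0.00421). The one 9332 bp away (chr10:3109414-3110509) scored 0.381 and 0.243 with AA, 0.637 and 1.34 with PGE2 and 0.294 and 0.491 with vehicle, so here a vehicle library fell among the AA values. Its difference was -1.58 ± 0.25 (limma, adjusted p = 0.0427).

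Cdk5rap2, the gene of a centrosomal protein that anchors microtubule nucleation, carried a passing interval inside its span (chr4:70377663-70378338). Scores were 0.228 and 0.221 with AA, 0.409 and 1.04 with PGE2 and 0.399 and 0.314 with vehicle. PGE2 replicate 1 lay just above the vehicle values and replicate 2 far above them. The difference was -1.48 ± 0.23 (limma, adjusted p = 0.0401). Dpy19l2, a gene known for its part in sperm head formation, was the nearest gene, at 14527 bp, to an interval on chromosome 9 (chr9:24541614-24542520). That interval scored 4.12 and 3.76 with AA, 5.31 and 7.25 with PGE2 and 4.63 and 4.73 with vehicle. Its difference was the smallest of the 9, -0.79 ± 0.11 (limma, adjusted p = 0.0135).

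The 3 passing intervals with no gene within 50 kb lay on chromosomes 10, 5 and 4. The first (chr10:130594440-130595001) had 0.490 and 0.374 with AA against 0.909 and 1.42 with PGE2, a difference of -1.44 ± 0.19 (limma, adjusted p = 0.00469). The second (chr5:79419133-79419773) was the one weak interval, at rank 41883 in the other libraries. It scored 0.0401 and 0.0409 with AA, 0.308 and 0.313 with PGE2 and 0.156 and 0.212 with vehicle. The replicates of each treated group were nearly equal there, both AA values lay below the pseudocount of 0.0579, and the group mean with PGE2 was 7.67 times that with AA. Its difference was -2.05 ± 0.28 (limma, adjusted p = 0.00469), the largest of the 9 on the log2 scale. The last (chr4:64497722-64498068) had 0.556 and 0.566 with AA and 0.798 and 1.44 with PGE2, a difference of -1.01 ± 0.16 (limma, adjusted p = 0.0430).

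**Figure D1:**
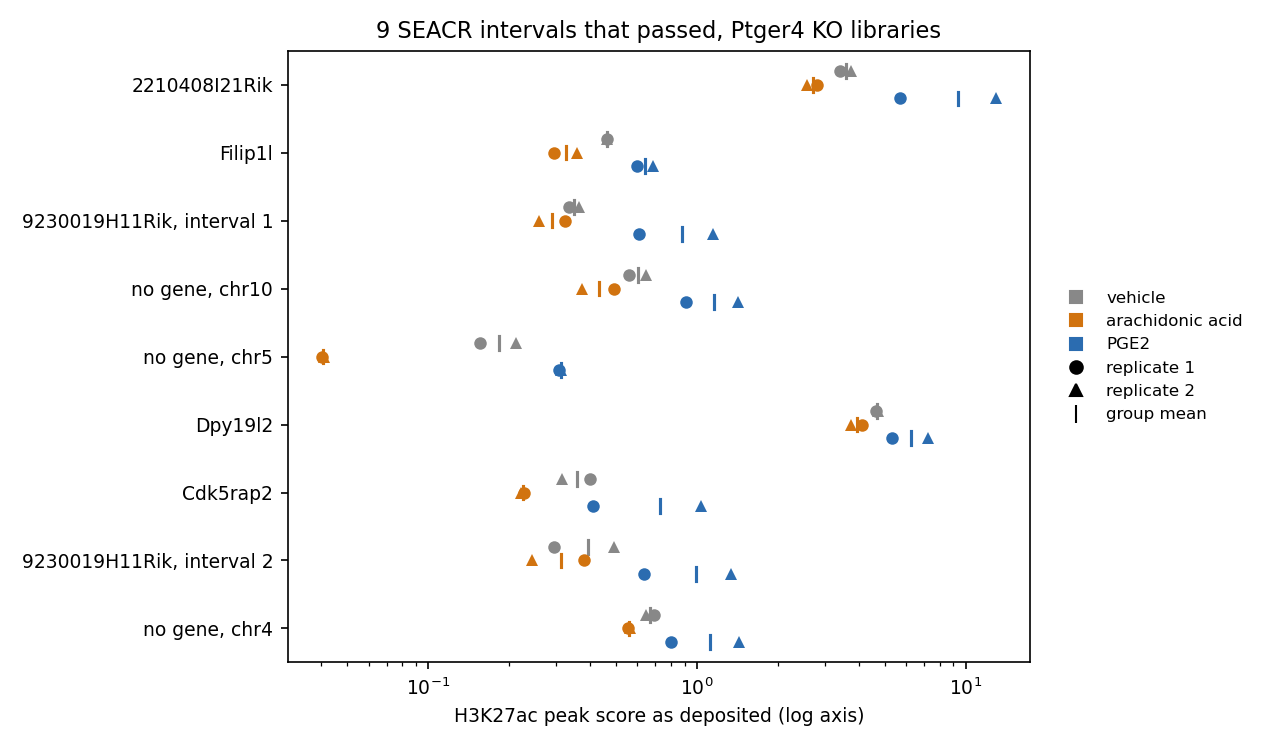
H3K27ac peak scores as deposited (horizontal log axis) at the 9 SEACR intervals that passed, in order of p, for the 6 Ptger4 KO libraries. Circles are replicate 1, triangles replicate 2 and vertical ticks group means. At 2210408I21Rik the AA libraries sit at 2.81 and 2.58 and the PGE2 libraries at 5.72 and 13.0. In 8 of the 9 intervals vehicle lies between, an order that picking intervals by a small p favours.

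These 9 calls rested on the analysis chosen. None passed when limma's variance was fitted without its trend over signal strength (smallest adjusted p = 0.757), with only the 6 KO libraries (0.0917) or the 4 compared (0.989), with only the stronger intervals (0.0595) or without AA replicate 2 (0.272), and 1 passed, which was none of the 9, without AA replicate 1. Without PGE2 replicate 1, 50 intervals passed (45 lower and 5 higher with AA, all 9 among them), without PGE2 replicate 2, 5 passed (3 of the 9), and without the 1000 strongest intervals 1 passed.

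No interval with a higher score with AA passed. Only intervals with a protein-coding gene within 50 kb and groups that did not overlap on the centred scale were considered for naming. Among these, the smallest adjusted p in that direction belonged to an interval inside Nsd3, the gene of a histone H3 lysine 36 methyltransferase (chr8:25657750-25658566). It scored 0.236 and 0.333 with AA and 0.0267 and 0.0651 with PGE2, a difference of 1.59 ± 0.30 (limma, adjusted p = 0.171). Chrm3, the M3 muscarinic acetylcholine receptor gene, held an interval with 0.298 and 0.234 with AA and 0.00503 and 0.0385 with PGE2 (1.91 ± 0.37, limma adjusted p = 0.189). Efhd1, a mitochondrial calcium-binding protein gene, had 0.214 and 0.322 against 0.0466 and 0.0377 (1.55 ± 0.31, limma adjusted p = 0.239). An interval 2948 bp from Gclc, the catalytic subunit gene of glutathione synthesis, had 0.222 and 0.257 against 0.106 and 0.0606 (0.95 ± 0.19, limma adjusted p = 0.280). One 32342 bp from Ndufa10, a subunit gene of respiratory complex I, had 0.205 and 0.241 against 0.0236 and 0.00323 (1.85 ± 0.41, limma adjusted p = 0.562). In each of these 5 the AA libraries lay above both PGE2 libraries, which was a condition of naming them. Both PGE2 values at Chrm3, Efhd1 and Ndufa10 were below the pseudocount, so the log2 differences there are shortened by it.

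The size of the AA to PGE2 difference depended on how strong an interval was in the 8 other libraries. Among the 10 strongest intervals all 10 were lower with AA, with a median centred log2 difference of -1.21, against -0.03 in WT. Among ranks 11 to 100, 65 of 90 (72.2%) were lower with AA, with a median of -0.25. From rank 101 to 1000 the median was 0.03, with 42.0% lower, and among the weakest 66471 it was -0.08, with 57.3% lower. Over all intervals, after median centring, 50.0% were lower.

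**Figure D2:**
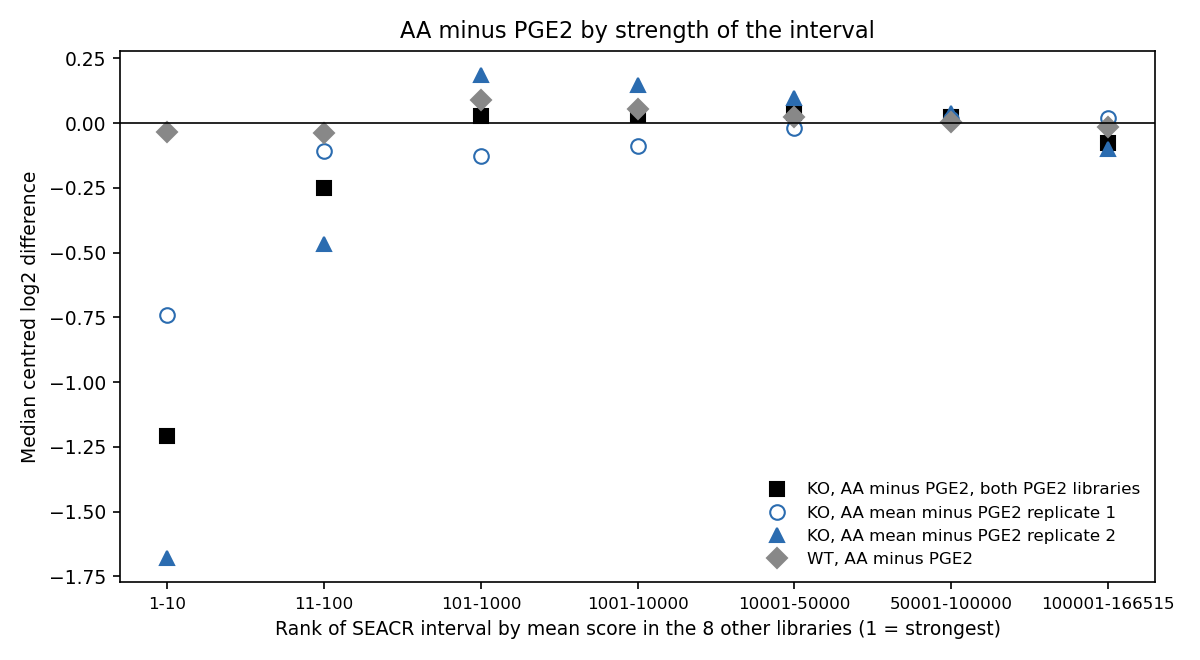
Median centred log2 difference, AA minus PGE2 (vertical axis), of SEACR intervals grouped by rank of mean score in the 8 other libraries (horizontal axis), in KO (black squares), against each KO PGE2 library (blue) and in WT (grey). The 10 strongest intervals have a median of -1.21 in KO and -0.03 in WT; from rank 101 to 1000 the 2 PGE2 libraries give opposite signs, -0.13 and 0.19.

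At the strongest intervals AA stood below both PGE2 libraries, while from rank 101 to 50000 the PGE2 libraries gave medians of opposite sign. Against PGE2 replicate 1 the median of the 10 strongest was -0.74, and against replicate 2 it was -1.68. From rank 101 to 1000 the same 2 medians were -0.13 and 0.19, and from rank 1001 to 10000 -0.09 and 0.15. From rank 10001 to 50000 they were -0.02 and 0.10. From rank 50001 to 100000 both were above 0, at 0.02 and 0.04, and among the weakest intervals they were 0.02 and -0.10.

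No annotation of repeats or of regions with unreliable mapping was used here, so whether the strongest intervals are single-copy places in the genome was not tested, and their scores may not belong to one locus. The strongest interval of all (chr2:98663328-98667871, no gene within 50 kb) scored 308 and 262 with AA, 497 and 903 with PGE2 and 367 and 359 with vehicle. A neighbour on the same chromosome (chr2:98661703-98663001) had 78.0 and 68.0 with AA and 110 and 173 with PGE2. On chromosome 12 (chr12:3109733-3110279) the scores were 117 and 95.9 with AA and 184 and 369 with PGE2. The same order, both AA libraries below vehicle and both PGE2 libraries above it, held on chromosome 14 (chr14:19415438-19419714; 60.3 and 54.0 with AA, 74.6 and 73.3 with vehicle, 101 and 181 with PGE2).

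On chromosome 9 an interval 28227 bp from Rpusd4, a mitochondrial RNA pseudouridine synthase gene, had 31.6 and 26.7 with AA and 52.6 and 95.0 with PGE2. The interval at the start of that chromosome (chr9:2999989-3038660) had 24.5 and 21.2 with AA and 38.9 and 72.1 with PGE2. An interval inside Chl1, a neural cell adhesion gene, had 87.6 and 80.2 against 110 and 151, and one 35021 bp from Pak3, a p21-activated kinase gene, 19.5 and 18.2 against 24.2 and 34.4. The least different of the 10 lay 19506 bp from Ly6c2, a myeloid surface protein gene, with 4.72 and 4.61 against 5.18 and 4.84. Of these 10, 1 passed, the interval near Dpy19l2 given above. The trend in limma set SEs of 0.07 to 4.30 on them, against 0.22 to 0.34 without it, and no call was made either way for the other 9. The lower value with AA was not kept under every scaling: with cyclic loess Chl1, Ly6c2, Pak3 and both chromosome 2 intervals came out higher with AA (0.54, 0.44, 0.24, 0.23 and 0.21), and with quantile normalization Chl1 and Ly6c2 did (0.17 and 0.52).

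An interval over Rn18s-rs5, a ribosomal RNA sequence that RefSeq lists as a pseudogene (chr17:39842890-39848844), was looked at after its values were seen. It scored 1.49 and 1.39 with AA, 1.85 and 2.33 with PGE2 and 1.84 and 1.76 with vehicle. The difference was -0.65 ± 0.11 (limma, adjusted p = 0.0643) and did not pass.

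The MACS2 intervals, which are few and narrow, gave a larger share of calls in the same direction. Their SEs came from the variance trend alone, so a MACS2 p-value does not measure the spread between that interval's own replicates. In limma 35 of 701 (4.99%) passed, 34 (4.85%) lower with AA and 1 (0.143%) higher, and 75 (10.7%) had an unadjusted p under 0.05. Joined over gaps of up to 50 kb they formed 13 groups. All 35 overlapped a SEACR interval, and 8 overlapped one that passed. Of the 35, 17 lay inside the same SEACR interval (chr9:2999989-3038660), so they are not independent of each other. That interval did not pass (limma, adjusted p = 0.532). Another 3 lay inside a SEACR interval on chromosome 14 that did not pass either (limma, adjusted p = 0.884). A mean score above 3 in the 8 other libraries was found for 21 of the 35 and for 55 MACS2 intervals in all. No protein-coding gene lay within 50 kb of 24 of the 35, whereas 82.6% of all MACS2 intervals had one.

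The largest group, 17 passing of 18 tested, lay at the start of chromosome 9 (chr9:3000286-3038229). Its median score over the passing intervals was 30.5 and 25.4 in the AA libraries, 48.0 and 89.2 in the PGE2 libraries and 35.7 and 35.1 with vehicle. The 17 log2 differences ran from -1.61 to -1.29 in KO (limma, adjusted p from 2.59e-08 to 0.0198) and from -0.16 to 0.04 in WT. Near 9230019H11Rik all 5 MACS2 intervals tested passed, with differences from -1.73 to -1.40 and median scores of 0.628 and 0.437 with AA and 0.936 and 2.12 with PGE2. On chromosome 14 (chr14:19415723-19418914) all 3 passed, from -1.45 to -1.38, with median scores of 97.3 and 89.2 with AA and 164 and 269 with PGE2. Whether the chromosome 9 and chromosome 14 groups lie in repeated sequence was not tested. The remaining 10 groups were single intervals. Among them were one near Filip1l (-1.07 ± 0.31), one near Mrgprd, a sensory neuron receptor gene (-1.16 ± 0.33), one near Camk1d, a calmodulin-dependent kinase gene (-1.29 ± 0.38), and one near Mdga2, a synaptic adhesion gene (-1.12 ± 0.29).

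The single MACS2 interval that was higher with AA was nearest to Gm40469, a predicted gene (chr8:20518634-20518877). It scored 0.739 and 1.34 with AA, 0.170 and 0.345 with PGE2 and 0.521 and 0.806 with vehicle. The difference was 1.25 ± 0.40 (limma, adjusted p = 0.0367). Here a vehicle library exceeded one AA library, and both PGE2 libraries were lowest.

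**Figure D3:**
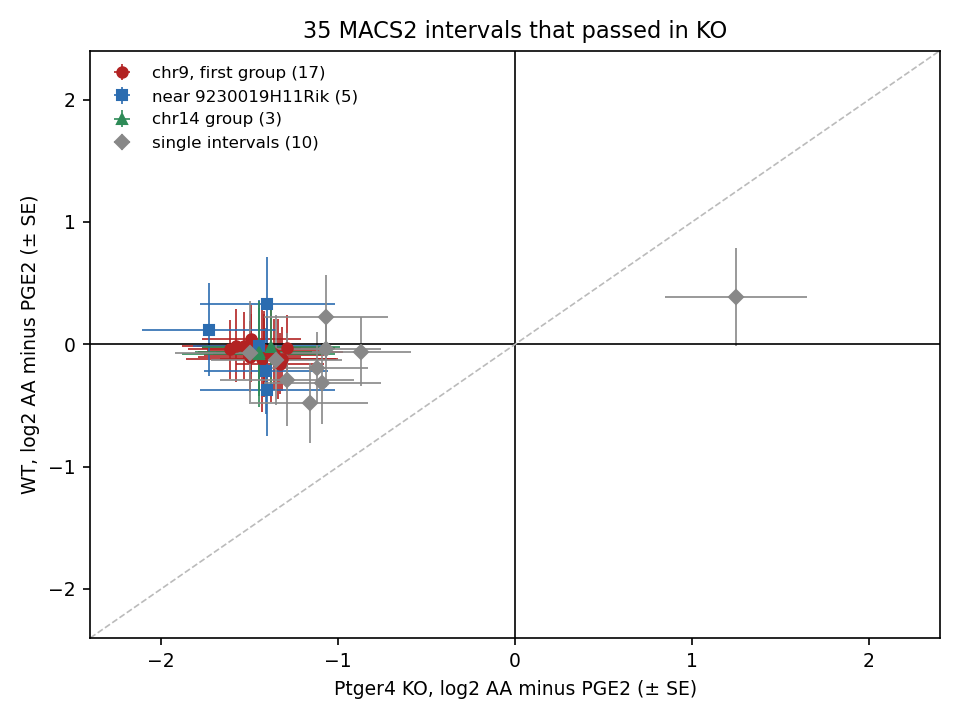
Log2 difference of AA minus PGE2 in Ptger4 KO (horizontal axis) and WT (vertical axis) at the 35 MACS2 intervals that passed in KO; bars are SEs and the dashed line marks equal differences. The 17 intervals at the start of chromosome 9 run from -1.61 to -1.29 in KO and from -0.16 to 0.04 in WT.

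The MACS2 calls too depended on libraries and settings. None passed with only the 6 KO libraries (smallest adjusted p = 0.224), the 4 compared (0.735), no variance trend (0.101) or without AA replicate 2 (0.0667), and 9 passed without AA replicate 1 or without the intervals scoring above 3. Without PGE2 replicate 1, 74 passed, and without replicate 2, 31 passed, 27 lower and 4 higher; quantile scaling left 3 (2 lower, 1 higher), and cyclic loess 23, of which 14 were lower and 9 higher.

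Whether the AA to PGE2 difference was the same in WT organoids was tested as a contrast of differences. In WT limma called 0 of 166471 SEACR intervals, and 9443 (5.67%) had an unadjusted p under 0.05. It called 0 of 701 MACS2 intervals in WT, where 38 (5.42%) had such a p. The contrast of KO and WT differences had 0 SEACR calls in limma (smallest adjusted p = 0.586), with 9149 intervals (5.5%) below an unadjusted 0.05; without KO PGE2 replicate 1 it had 21 calls and without replicate 2, 4. Of the 9 intervals that passed in KO, 6 had a negative and 3 a positive difference in WT. At 2210408I21Rik WT scored 4.19 and 3.33 with AA and 3.33 and 4.76 with PGE2, overlapping, and the contrast was -1.72 ± 0.32 (limma, adjusted p = 0.798). At Cdk5rap2 WT scored 0.409 and 0.424 with AA and 0.291 and 0.310 with PGE2, the opposite order to KO, and the contrast was -1.90 ± 0.33 (limma, adjusted p = 0.586).

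The interval over Rn18s-rs5, named after its values were seen, had a contrast of -0.90 ± 0.16 (limma, adjusted p = 0.586), with a WT difference of 0.24. The other intervals named by the contrast did not pass either. Near Ly6g2 the KO AA scores were 0.258 and 0.280 and the KO PGE2 scores 0.0727 and 0.135, with a contrast of 1.83 ± 0.37. Ptpro, a receptor tyrosine phosphatase gene, had 2.06 ± 0.42, mostly from WT, where the difference was -1.67. Tmem14a had 1.66 ± 0.35 and Cabcoco1 -2.07 ± 0.40. These 4 had limma adjusted p = 0.798. In the MACS2 intervals, a contrast added after the data were seen, 5 of 701 (0.713%) passed, all within the group at the start of chromosome 9, and 68 (9.7%) had an unadjusted p under 0.05. The 5 contrasts ran from -1.57 to -1.46.

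Set against the same 2 vehicle libraries, which both comparisons share, the treatments differed as follows. KO AA against vehicle had 0 SEACR calls in limma and 6854 intervals (4.12%) at an unadjusted p under 0.05, and 0 MACS2 calls with 20 (2.85%). KO PGE2 against vehicle had 1 SEACR call of 166471 (0.000601%) and 23 of 701 MACS2 calls (3.28%), all higher with PGE2; 11411 SEACR (6.85%) and 77 MACS2 intervals (11%) had an unadjusted p under 0.05. That SEACR interval lay inside Smo, the gene of the Hedgehog signal transducer (chr6:29747487-29749343). It scored 0.929 and 0.951 with AA, 1.20 and 1.15 with PGE2 and 0.675 and 0.631 with vehicle. Both treatments stood above vehicle there, PGE2 by 0.93 ± 0.11 (limma, adjusted p = 0.00160) and AA by 0.49 ± 0.11, which did not pass, and AA minus PGE2 was -0.45 ± 0.11 (limma, adjusted p = 0.700). In the 9 intervals that separated AA from PGE2 the fitted AA minus vehicle difference was negative, without a call. Picking these 9 by their AA minus PGE2 difference favours that sign. At the one 9332 bp from 9230019H11Rik the AA and vehicle scores overlapped (-0.28 ± 0.25). At 2210408I21Rik AA was 0.41 below and PGE2 1.39 above vehicle on the log2 scale, and at Filip1l 0.45 below and 0.56 above.

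Intervals that hold a gene start gave no call. Of 10166 such intervals 0 passed in limma (0.0%), against 0.00541% of all intervals, a share so small that 0 is no departure from it. At an unadjusted p under 0.05, 187 (1.84%) were lower and 202 (1.99%) higher, against 3.4% and 2.25% of all intervals. Their median difference was 0.02, -0.07 against PGE2 replicate 1 and 0.10 against replicate 2. Median centred levels were 0.24 in both AA libraries, 0.32 in PGE2 replicate 1 and 0.14 in replicate 2, where the other 8 libraries had 0.29 to 0.40. The AA libraries thus lay below 9 of the 10 others in relative start-site signal, and PGE2 replicate 2 below them.

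A few starts were picked from the 3 intervals listed by small p in each direction, a choice made after the values were seen. Listed intervals hold the start of a protein-coding gene and have groups that did not overlap. Not every chromosome was searched for them, so they need not have the smallest p of all such intervals. Gm40369 (lower) and Abtb1 (higher) were listed too but are not shown. Ptger4 was added because it is the deleted gene. The sequences upstream of the picked starts and of Ptger4 are given below. They are the 250 bases before the annotated start in RefSeq (GRCm38.p6), 5′ to 3′, with capitals for the 5-base core of the CREB motif, searched as TGACG and CGTCA on both strands; the full palindrome TGACGTCA contains both.
Zdhhc17 (chr10:111010010-111010259, minus strand): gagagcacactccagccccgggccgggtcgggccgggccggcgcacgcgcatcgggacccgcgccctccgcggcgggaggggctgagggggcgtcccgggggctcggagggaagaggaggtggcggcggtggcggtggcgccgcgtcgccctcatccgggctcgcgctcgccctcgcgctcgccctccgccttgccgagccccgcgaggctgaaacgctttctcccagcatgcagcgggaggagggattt
Sipa1 (chr19:5663708-5663957, minus strand): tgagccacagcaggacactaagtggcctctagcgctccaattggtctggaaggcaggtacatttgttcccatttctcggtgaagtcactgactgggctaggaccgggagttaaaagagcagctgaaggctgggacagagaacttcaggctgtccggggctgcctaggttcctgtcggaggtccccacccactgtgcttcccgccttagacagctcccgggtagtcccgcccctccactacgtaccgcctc
Rbms2 (chr10:128176569-128176818, minus strand): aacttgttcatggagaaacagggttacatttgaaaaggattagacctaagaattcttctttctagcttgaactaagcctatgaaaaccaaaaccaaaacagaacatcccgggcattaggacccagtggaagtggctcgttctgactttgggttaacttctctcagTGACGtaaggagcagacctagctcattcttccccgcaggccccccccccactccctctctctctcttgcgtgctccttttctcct
Exoc3l4 (chr12:111417180-111417429, plus strand): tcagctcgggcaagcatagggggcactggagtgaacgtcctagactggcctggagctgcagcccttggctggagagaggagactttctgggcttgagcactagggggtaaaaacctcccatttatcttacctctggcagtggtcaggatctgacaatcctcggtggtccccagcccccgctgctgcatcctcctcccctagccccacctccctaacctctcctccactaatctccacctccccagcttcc
Ptger4 (chr15:5244188-5244437, minus strand): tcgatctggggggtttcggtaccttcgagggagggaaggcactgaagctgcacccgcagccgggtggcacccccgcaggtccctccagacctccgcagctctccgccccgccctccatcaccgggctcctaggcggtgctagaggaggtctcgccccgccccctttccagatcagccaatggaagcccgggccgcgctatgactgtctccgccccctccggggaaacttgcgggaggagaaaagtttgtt
The core occurred once among these, upstream of Rbms2, 85 bases before the start. In windows of 300 bases, which add 50 after the start, 20.8% of 32851 RefSeq promoters held the core on either strand and 1.79% the full one. A match is a description of letters only.

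Zdhhc17, a palmitoyltransferase gene, scored 0.0352 and 0.0423 with AA and 0.247 and 0.0823 with PGE2 at its start, with vehicle at 0.166 and 0.203 (-1.24 ± 0.30, limma adjusted p = 0.688). Sipa1, which encodes a Rap GTPase-activating protein, scored 0.0529 and 0.0721 with AA and 0.222 and 0.205 with PGE2 (-1.31 ± 0.32, limma adjusted p = 0.700). Rbms2, an RNA-binding protein gene, scored 0.178 and 0.274 with AA and 0.100 and 0.0846 with PGE2 (0.76 ± 0.20, limma adjusted p = 0.839). Exoc3l4, related to an exocyst subunit, scored 0.232 and 0.192 against 0.0647 and 0.0628 (1.01 ± 0.27, limma adjusted p = 0.839). None of these 4 passed, and at Zdhhc17 the PGE2 replicates lay on both sides of the vehicle values.

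The genes of prostanoid signalling were read by the strongest interval of each gene. Over all 17583 genes with an interval, 5 (0.0284%) passed, the median difference was 0.001, and 8759 (49.8%) were lower with AA. Across the 24 lists of genes examined, 365 genes had an interval, 0 passed in limma (smallest adjusted p = 0.839), and 16 genes (4.38%), 8 lower and 8 higher, had an unadjusted p under 0.05, against 6.14% of all genes. List members named below are those with the smallest p, and every one has a limma adjusted p of at least 0.839.

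Ptger4 itself did not pass. Its strongest interval, which holds its start (chr15:5243427-5245375), scored 0.141 and 0.158 with AA, 0.117 and 0.128 with PGE2 and 0.124 and 0.300 with vehicle in KO, and 0.174 to 0.253 in the 6 WT libraries. PGE2 replicate 1 was the lowest of the 6 KO libraries, and the other treated ones lay between the vehicle values. The AA to PGE2 difference was 0.06 ± 0.25 (limma, adjusted p = 0.993). Of 9 intervals nearest to Ptger4, 0 passed, 3 were lower with AA, and none had an unadjusted p under 0.05. The score is no check of the deletion, since the labels do not say which part of the gene was removed.

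Of the 9 prostanoid receptor genes 7 had an interval, 4 higher and 3 lower with AA (median 0.017), and Ptger1 and Tbxa2r had none. Ptger2, the other cAMP-raising PGE2 receptor, scored 0.143 and 0.181 with AA and 0.0943 and 0.114 with PGE2, without overlap, at an interval 45075 bp from the gene (0.30 ± 0.23). Ptger3, which lowers cAMP, scored 0.229 and 0.176 with AA and 0.314 and 0.0994 with PGE2, so the PGE2 libraries bracketed the AA ones (-0.04 ± 0.26). None of the receptor genes of prostaglandin D2, F2α and prostacyclin passed: Ptgdr differed by 0.02 ± 0.20, Ptgdr2 by -0.29 ± 0.26, Ptgfr by 0.13 ± 0.30 and Ptgir by -0.34 ± 0.43.

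Among 15 genes of prostaglandin synthesis, export and breakdown 9 were higher and 6 lower with AA (median 0.067). Ptgs1, the constitutive cyclooxygenase, scored 0.295 and 0.119 with AA, 0.0720 and 0.0481 with PGE2 and 0.0934 and 0.0909 with vehicle. Its difference of 0.95 ± 0.32 did not pass (limma, adjusted p = 0.839), and the AA replicates were further apart than those of vehicle or PGE2. Ptgs2, the inducible cyclooxygenase, overlapped between groups, with 0.128 and 0.159 against 0.178 and 0.140 at an interval 23002 bp from the gene (-0.24 ± 0.27). Ptges, the inducible PGE2 synthase, had 0.0554 and 0.0856 against 0.111 and 0.0939 (-0.47 ± 0.35). Hpgd, whose product degrades PGE2, had 0.214 and 0.267 against 0.228 and 0.129 at its start (0.22 ± 0.17). Of 17 genes of AA supply, activation and lipoxygenases 11 were lower with AA (median -0.020).

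**Figure D4:**
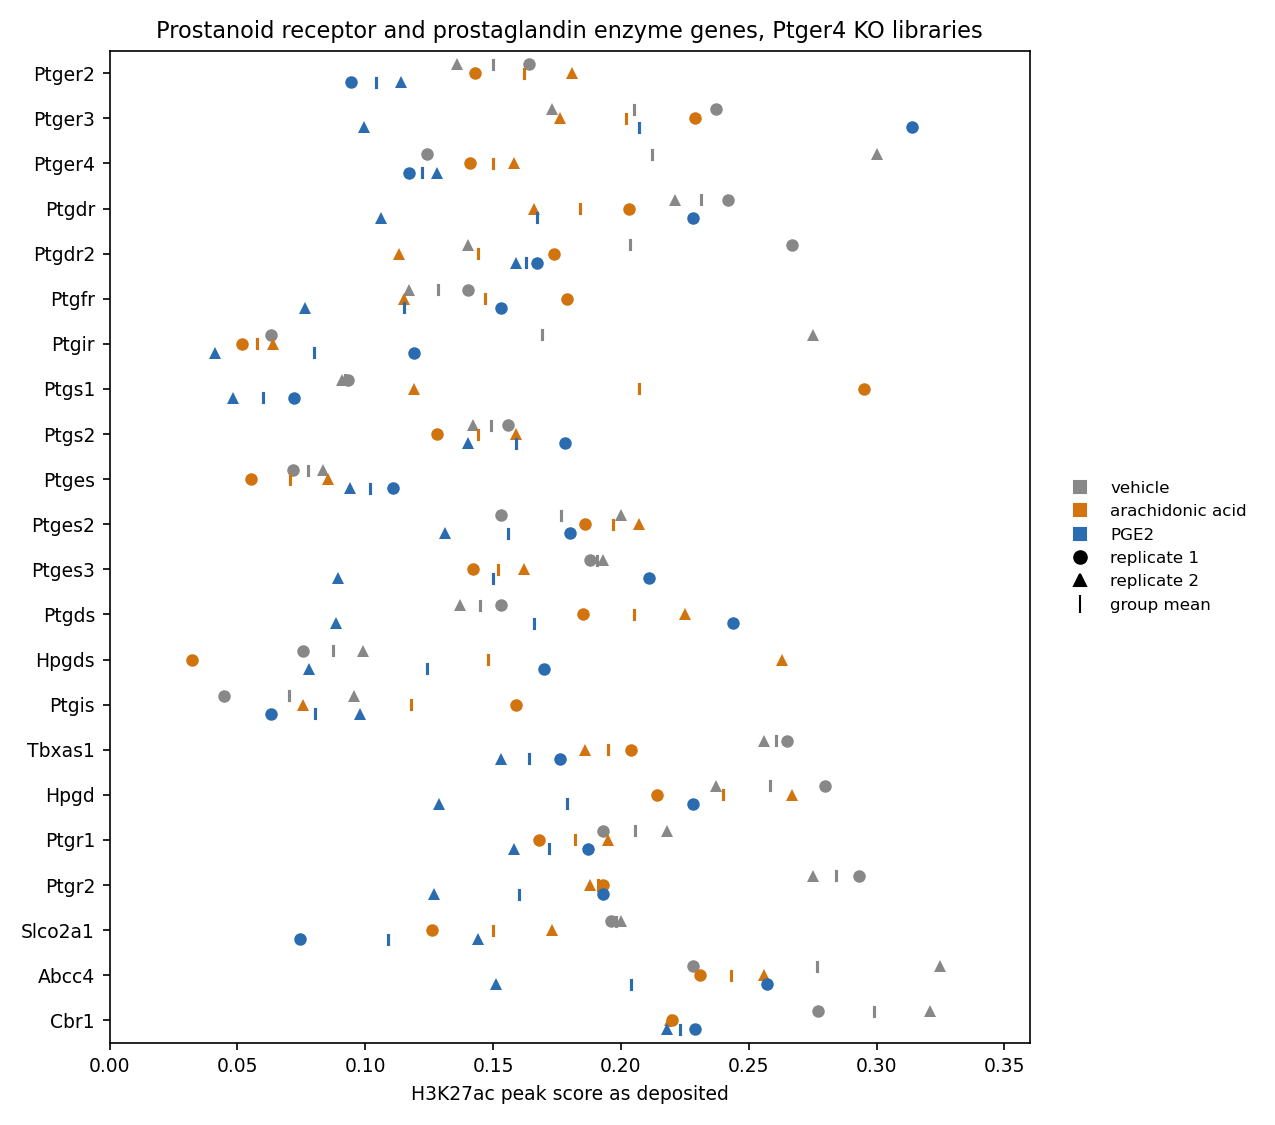
H3K27ac peak scores as deposited at the strongest interval of each prostanoid receptor and prostaglandin enzyme or transporter gene, in the 6 Ptger4 KO libraries (circles replicate 1, triangles replicate 2, ticks group means). Ptgs1 (0.295 and 0.119 with AA, 0.0720 and 0.0481 with PGE2) and Ptger2 are examples where AA and PGE2 do not overlap; at Ptgs2 and Ptger3 they do.

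The cAMP and CREB target list was split evenly, 13 of 25 genes higher with AA and 12 lower (median 0.002). Its smallest p belonged to Prkar1a, a regulatory subunit of protein kinase A, with 0.113 and 0.138 with AA and 0.220 and 0.149 with PGE2 (-0.53 ± 0.22). Adcy3, an adenylyl cyclase gene, had 0.134 and 0.131 with AA, 0.317 and 0.125 with PGE2 and 0.0969 and 0.0904 with vehicle (-0.60 ± 0.28). In these deposited scores only PGE2 replicate 1 stood above AA, while on the centred scale both PGE2 libraries did. The list's median was -0.12 against PGE2 replicate 1 and 0.12 against replicate 2. Of 26 PPAR and fatty acid oxidation genes, a set that fatty acids can activate through PPAR receptors, 12 were higher and 14 lower with AA (median -0.019), with 0 at an unadjusted p under 0.05.

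Stem cell and regeneration genes had no call. In the intestinal stem cell list 15 of 20 genes were higher with AA (median 0.089, against 0.001 over all genes), and the median was 0.20 against PGE2 replicate 2 but -0.03 against replicate 1. Its leading gene was the urea transporter Slc14a1, with 0.201 and 0.169 with AA, 0.0720 and 0.0963 with PGE2 and 0.112 and 0.0959 with vehicle. There the AA libraries stood above both other groups (0.64 ± 0.24, limma adjusted p = 0.857). The fetal-like and regenerative list had 12 of 18 genes higher (median 0.110; 0.02 and 0.21 against the 2 PGE2 libraries). Over all intervals of the genes, not only the strongest of each, the medians were 0.012 for the stem cell and 0.022 for the fetal-like list, against -0.021 for all genes. It was led by the basement membrane collagen Col4a2, with 0.126 and 0.136 with AA and 0.0387 and 0.0744 with PGE2 (0.60 ± 0.30), and the EGF receptor ligand Areg, with 0.194 and 0.257 against 0.208 and 0.0873 (0.38 ± 0.19). At Areg PGE2 replicate 1 lay between the AA values.

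Wnt pathway genes were evenly split, 10 higher and 10 lower (median 0.010). Nkd1, a feedback inhibitor of Wnt signalling, had 0.0553 and 0.0587 with AA, 0.237 and 0.134 with PGE2 and 0.0805 and 0.0552 with vehicle at an interval 24819 bp from the gene (-1.19 ± 0.39, limma adjusted p = 0.839). Both PGE2 libraries stood above the other 4 KO libraries there. Of 21 YAP, TEAD and Hippo genes 13 were lower (median -0.057), and the 2 leading members, both DNA-binding partners of YAP, pointed in opposite directions. Tead1 had 0.235 and 0.269 with AA and 0.204 and 0.104 with PGE2 (0.45 ± 0.17). Tead4 had 0.102 and 0.0911 with AA and 0.339 and 0.0955 with PGE2 (-0.82 ± 0.33). There PGE2 replicate 2 was inside the AA range as deposited but above it on the centred scale. Of 11 AP-1 subunit genes 7 were lower (median -0.017), and Fosl1 had 0.218 and 0.224 with AA and 0.142 and 0.108 with PGE2 (0.48 ± 0.22).

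**Figure D5:**
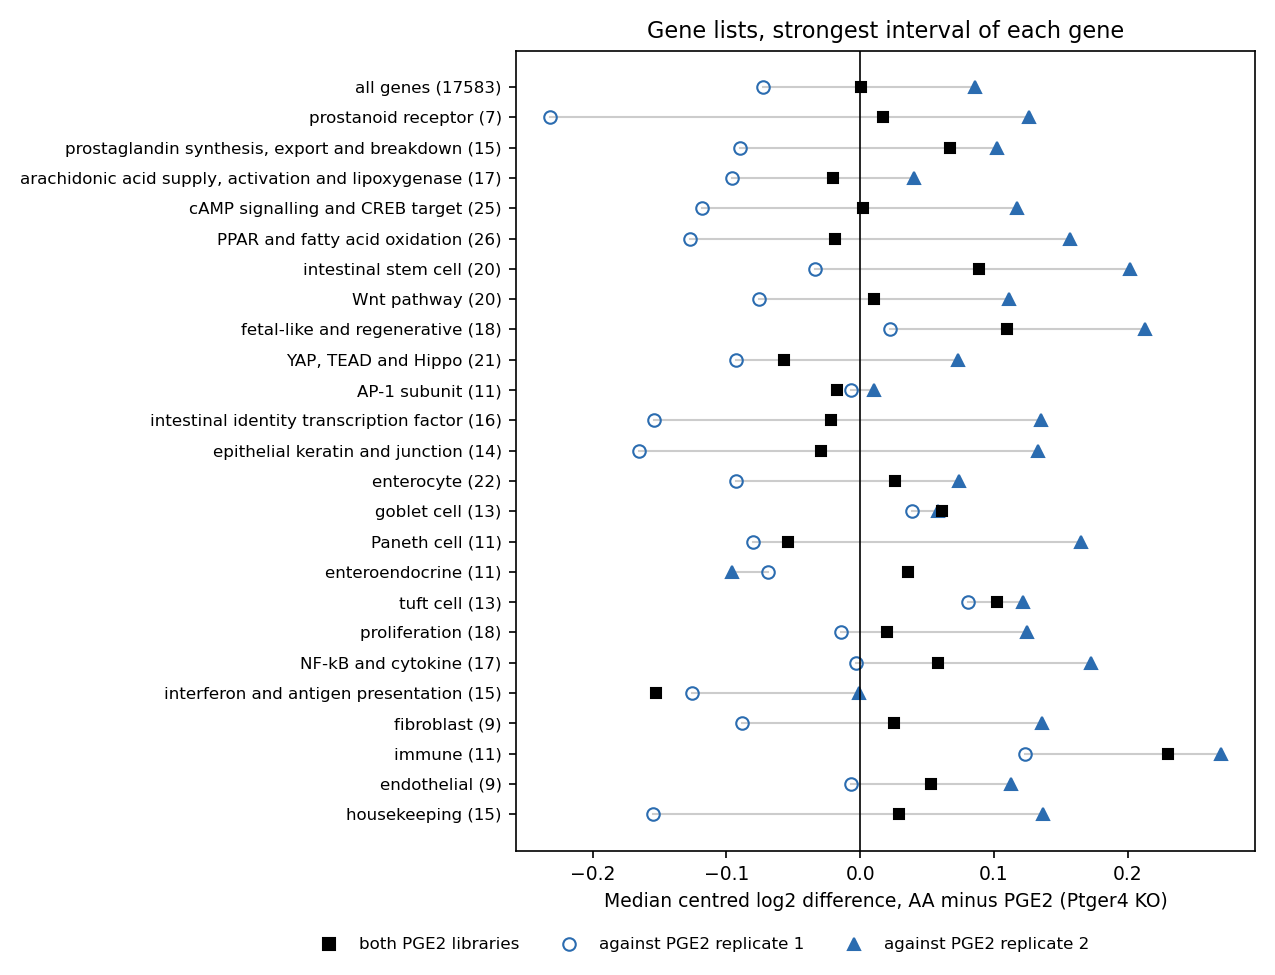
Median centred log2 difference, AA minus PGE2, in Ptger4 KO (horizontal axis) over the strongest interval of each gene for 24 gene lists and all genes, with the number of genes in brackets. Black squares use both PGE2 libraries and blue symbols each one alone; for all genes these are 0.001, -0.07 and 0.09, and for the stem cell list 0.089, -0.03 and 0.20.

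Epithelial identity was read from lists of cell type markers. The epithelial keratin and junction list had a median score of 0.213 ± 0.00918 (SD, n = 2) with AA and 0.197 ± 0.0550 with PGE2, above all genes (0.153 and 0.135), whereas the fibroblast list had 0.137 and 0.132 and the enteroendocrine list 0.117 and 0.0985. The endothelial list, at 0.170 and 0.123, was above all genes with AA and below them with PGE2, and the immune list stood at 0.152 and 0.104. The fibroblast genes Col1a2, Col3a1 and Lum were nearest to no interval. The immune list had library medians of 0.142 and 0.161 with AA and 0.114 and 0.0944 with PGE2, with 8 of 11 genes higher with AA (median difference 0.230), and its part in other results was not tested. Cd8a, a T cell coreceptor gene, had 0.195 and 0.165 with AA and 0.0853 and 0.0834 with PGE2 (0.60 ± 0.27). In bulk libraries a change in the share of a cell type and a change in signal per cell cannot be told apart.

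The absorptive and secretory lists showed no common direction. Enterocyte genes were 12 higher and 10 lower (median 0.026), with Cyp3a11, a drug-metabolizing cytochrome, at 0.298 and 0.256 with AA and 0.205 and 0.167 with PGE2 (0.32 ± 0.14). Goblet cell genes were 9 of 13 higher (median 0.061; 0.04 and 0.06 against the 2 PGE2 libraries). The list was led by Bcas1, with 0.310 and 0.271 with AA, 0.174 and 0.127 with PGE2 and 0.234 and 0.297 with vehicle (0.61 ± 0.18, limma adjusted p = 0.839). Its interval lay 34179 bp from the gene. Fcgbp, a mucus protein gene, pointed the other way, with 0.170 and 0.0824 against 0.257 and 0.144 (-0.63 ± 0.28), and the groups overlapped.

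Paneth cell genes were 5 higher and 6 lower (median -0.054), with Lyz2 at 0.0997 and 0.0622 with AA and 0.131 and 0.187 with PGE2 (-0.78 ± 0.33). Enteroendocrine genes were 6 higher and 5 lower (median 0.036), and Pyy, a gut hormone gene, had replicates too far apart to compare, 0.0108 and 0.126 with AA and 0.0965 and 0.248 with PGE2 (-1.09 ± 0.46). Tuft cell genes were 9 of 13 higher (median 0.102), with Ptgs1, also a tuft cell gene, leading. Proliferation genes were 9 higher and 9 lower (median 0.020), with the spindle checkpoint kinase gene Bub1 at 0.121 and 0.122 with AA and 0.194 and 0.183 with PGE2 (-0.59 ± 0.28). The intestinal identity transcription factor list (8 and 8, median -0.022), the keratin and junction list (6 higher, 8 lower, -0.029), the NF-kB and cytokine list (10 and 7, 0.058), the interferon list (7 and 8, -0.153), the fibroblast list (5 and 4, 0.025) and the housekeeping list (8 and 7, 0.029) had 0 genes at an unadjusted p under 0.05. The endothelial list (5 higher, 4 lower, 0.053) had 1, the receptor gene Tek, with 0.217 and 0.192 with AA and 0.127 and 0.0976 with PGE2 (0.49 ± 0.18).

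By chromosome, the autosomes had median differences between -0.020 and 0.022. The X chromosome had -0.159 over 2031 intervals, of which 65.3% were lower with AA, with 0 calls. Its median centred level was -0.25 and -0.27 in the AA libraries, -0.18 in PGE2 replicate 1 and -0.01 in replicate 2, where the 8 other libraries had -0.26 to -0.15. The X chromosome level of PGE2 replicate 2 stood apart from all 11 others, and PGE2 replicate 1 lay within their range.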

How the data were processed

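H3K27ac was measured by CUT&RUN in 12 libraries, and groups follow the genotype and treatment labels. The deposited values are a peak signal score per interval and library made by the authors; per the submitters' processing notes, SEACR, MACS2 and the mm10 build were used. The aligner, the settings, the score's normalization and the read depth were not given in the sources used here. EP4KO in the deposited table was taken to mean Ptger4 KO, since EP4 is the protein of that gene.

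Scores were analysed as log2(score + pseudocount), the pseudocount being the 10th percentile of non-zero scores (0.0579 for SEACR, 0.182 for MACS2), and centred on each library's median. Intervals above it in at least 2 libraries were kept (166471 and 701). limma 3.58.1 in R 4.3.3 (lmFit, eBayes with trend) fitted 6 group means to all 12 libraries, with 6 residual degrees of freedom and 17.4 prior ones for SEACR; for MACS2 the prior was unlimited, so the spread came from the trend alone. Tests were two-sided, adjusted by Benjamini-Hochberg, with a threshold of 0.05. Exact permutation of 2 against 2 libraries cannot go below p = 0.333 and was not used. Each interval took the nearest protein-coding gene of GRCm38.p6 within 50 kb; exons are not annotated there, so exonic or intronic position is not given. Each gene was read by its interval of highest mean over 12 libraries.

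Named were Ptger4, the prostanoid receptors, passing intervals, the 5 of smallest p where few passed and the 10 strongest intervals. Up to 3 members of smallest p per list and up to 3 intervals per direction of the contrast of differences were named too. The 5 were taken among intervals with a protein-coding gene within 50 kb and groups that did not overlap on the centred scale. Those of the contrast had such a gene too. The MACS2 groups, Smo, the start-site genes and Rn18s-rs5 were named after their values were seen. The members, gene lists and alternatives were chosen with earlier results of these data known. The fit was run on simulated data with the same spread for every interval and library. That run therefore does not check the variance trend or the effect of an outlying library. Scaling, pseudocount, filter, variance model, replicate block and left-out libraries were varied.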

Additional observations from a re-analysis of the deposited data

Results flagged for a closer look

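At 5 MACS2 intervals on chromosome 9 the AA to PGE2 difference differed between KO and WT by the limma contrast of differences. The contrast was -1.57 ± 0.34 from 3037211 to 3037443 (adjusted p = 0.00329), -1.52 ± 0.38 from 3012743 to 3013538 (0.0198), -1.53 ± 0.39 from 3009301 to 3009608 (0.0257), -1.57 ± 0.43 from 3025531 to 3025932 (0.0380) and -1.46 ± 0.40 from 3017055 to 3017506 (0.0380). At the first of these KO scored 7.03 and 5.53 with AA, 12.3 and 22.7 with PGE2 and 7.61 and 8.86 with vehicle. The 5 intervals lie within one SEACR interval, so they are not independent of each other. Their SEs came from the variance trend alone and do not measure the spread between each interval's own replicates. Whether this place is repeated sequence was not tested, so the scores may not belong to one locus. They did not pass when any 1 of the WT AA, WT PGE2 or KO AA libraries was left out (0 calls), 4 intervals passed without KO PGE2 replicate 2 and 52 without KO PGE2 replicate 1.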

How the results depend on the processing

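Of the 9 SEACR intervals that passed, 8 were lower with AA in each alternative that retained them (the 1000 strongest intervals, once left out, held 8 of the 9), and the interval near Dpy19l2 came to 0.00 under quantile normalization; their log2 differences ran from -2.75 to 0.00. The 9 SEACR calls became 2 with cyclic loess, 1 with robust eBayes, 1 without the 1000 strongest intervals (chosen after seeing the data), and 0 with only intervals above the median mean score, only the 6 KO libraries, only the 4 libraries compared or no trend. Leaving out 1 of the 4 libraries gave 0 to 50 calls. Quantile normalization gave 11 calls, 5 higher and 6 lower, against 0 and 9. As deposited, without centring, the median difference over all intervals was 0.14 and 8 intervals passed. The 35 MACS2 calls became 3 with quantile normalization, 23 with cyclic loess, 0 with only the 6 KO libraries, only the 4 compared or no trend, and 9 without intervals above a mean score of 3 (chosen after seeing the data); leaving out 1 library gave 0 to 74. The contrast of differences had 4 SEACR calls with quantile normalization and 0 to 21 when 1 library was left out, against 0. Its 5 MACS2 calls, a result added after seeing the data, became 16 without centring, 2 with quantile normalization, 10 with cyclic loess (6 higher, 4 lower), 1 and 15 with the smaller and larger pseudocount, 13 with arrayWeights, 0 with only the stronger intervals, no trend or robust eBayes, and 0 to 52 when 1 library was left out.

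The deviations of same-numbered KO AA and KO PGE2 libraries correlated across intervals at 0.003 (SEACR) and -0.084 (MACS2). Vehicle and WT libraries were not compared in this way. Such a correlation cannot show whether same-numbered libraries shared a culture, mouse or batch. With a replicate block the calls were 14 for SEACR (all 9 among them), 30 for MACS2, 0 for the SEACR contrast and 1 for the MACS2 contrast.

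Among named intervals, none of them passing, the sign turned at Chl1 (0.17 with quantile normalization, 0.54 with cyclic loess), Ly6c2 (0.52 and 0.44), Pak3 (0.24 with cyclic loess), the chromosome 2 intervals from 98661703 (0.23 with cyclic loess) and from 98663328 (0.00 with quantile normalization, 0.21 with cyclic loess), Ptger3 (0.10 without centring, 0.12 with quantile normalization, 0.12 without KO_AA replicate 2, and from -0.58 to 0.49 over all left-out libraries), Ptger4 (-0.06 without KO_PGE2 replicate 1, up to 0.19 without KO_PGE2 replicate 2) and Hpgd (-0.00 without KO_PGE2 replicate 2). Of 192 list medians recomputed under alternatives, 62 moved by more than the spread between replicate libraries.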
